A study of Mus musculus with 6 samples.

Results

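The 10 genes described here encode a core of the IL-2 and IL-4 receptor signalling pathway in CD4 T cells. They are 3 receptor chains (Il4ra, Il2rb and Il2rg), 2 Janus kinases (Jak1 and Jak3), 2 transcription factors (Stat5a and Stat5b) and 3 inhibitors (Cish, Socs1 and Socs3). They were chosen by symbol, and each symbol had 1 entry in every gene table, 10 of the 23415 entries with a usable status. RNA was sequenced from CD4 T cells of spleen and lymph nodes of C57/Bl6j mice aged 7 weeks, either NLRP3KO (lacking NLRP3, a sensor protein that nucleates an inflammasome) or wild-type (WT). For each genotype there was 1 library of naive cells, 1 of cells kept for 3 days and 1 of cells kept for 6 days under T helper type 2 (Th2) conditions, 6 libraries in all. Th2 cultures of both genotypes received 10 ng/ml IL-4 and an antibody against interferon gamma on plates coated with antibodies to CD3 and CD28. The labels do not say how many mice gave the cells of a library.

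IL-2 and IL-4 signal through receptors that share a common gamma chain, encoded by Il2rg. The IL-2 receptor adds a beta chain (Il2rb) and, for high affinity, an alpha chain (Il2ra), whereas the IL-4 receptor of T cells pairs the gamma chain with IL-4R alpha (Il4ra). JAK1 and JAK3 are bound to these chains and phosphorylate STAT proteins, mainly STAT5A and STAT5B after IL-2 and mainly STAT6 after IL-4. CIS (encoded by Cish) and SOCS1 are induced by STAT proteins and inhibit the receptors that induced them, and SOCS3 acts likewise, best known downstream of the IL-6 receptor family. In mouse CD4 T cells IL-4 through STAT6 and IL-2 through STAT5 both take part in Th2 differentiation.

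STAT5 dimers bind a palindrome of TTC and GAA with 3 bases between them, and the promoters of 2 of the inhibitors hold that pattern. Both are shown because these genes stood at opposite ends of the inhibitors' levels by day 6. The sequences run from 250 bases before to 30 bases after the transcription start in RefSeq (GRCm38.p6), a later build than the mm9 build of the gene tables, and capitals mark each match to TTCNNNGAA. The Cish window lies at chr9:107296409-107296688 on the plus strand, and the Socs3 window at chr11:117969337-117969616 on the minus strand.
Cish: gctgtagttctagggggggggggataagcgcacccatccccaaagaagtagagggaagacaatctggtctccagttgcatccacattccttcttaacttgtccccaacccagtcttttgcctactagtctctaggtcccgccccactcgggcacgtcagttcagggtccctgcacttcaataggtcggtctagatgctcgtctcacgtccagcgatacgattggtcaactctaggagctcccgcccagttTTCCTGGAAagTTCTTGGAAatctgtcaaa
Socs3: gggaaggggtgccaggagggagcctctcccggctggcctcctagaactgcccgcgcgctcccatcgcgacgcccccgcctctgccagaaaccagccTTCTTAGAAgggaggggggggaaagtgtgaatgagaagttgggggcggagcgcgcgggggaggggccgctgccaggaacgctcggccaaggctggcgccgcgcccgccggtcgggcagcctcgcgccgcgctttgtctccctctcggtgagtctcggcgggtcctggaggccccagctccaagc
The Cish window held 2 copies, TTCCTGGAA starting at base 1 and TTCTTGGAA at base 12 counted from the transcription start, and the Socs3 window held TTCTTAGAA starting at base -154. The pattern reads the same on both strands. It was present in 7.83% of 32851 promoter windows of this length, and 0.408% held 2 or more copies. Of the 10 genes, 9 matched a RefSeq entry, with 11 windows among them, and these 2 genes held the pattern. The same pattern with 4 bases between TTC and GAA, the wider spacing known from STAT6 binding, was present in 6.50% of all windows and in none of the 9 genes' windows. A match describes the letters in these windows and is not evidence of binding.

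Values are FPKM, fragments scaled to transcript length and to the mapped fragments of the library, as the authors deposited them, each with the lower and upper bound deposited beside it. With 1 library per group no comparison between 2 libraries has a replicate check or a p-value. A single fit over the 6 libraries, with stage as a block, is given with the genotype comparison. Depth differed widely. Fragments estimated from the FPKM and bounds, summed over the genes where they could be recovered, came to 824749 in naive NLRP3KO and 990203 in naive WT, between 14799 and 18187 in 3 Th2 libraries and to 3013 in NLRP3KO day 6. Sample descriptions give purified mRNA for naive cells and rRNA depletion for Th2 cells, while the protocol text of the naive samples names both methods. As described, cell state and library preparation cannot be told apart. Differences between libraries were therefore taken after scaling on 1059 genes that reached an FPKM of 1 in each of the 6 libraries, as log2 of scaled FPKM plus 1, and genes at least 2-fold apart on that scale were counted. In such bulk RNA, fewer cells of a type and less RNA per cell cannot be told apart. Nlrp3 was listed at 0 in 5 libraries and at 0.0569 FPKM in naive WT, too low to check the genotype labels.

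The labelled cell type was checked against 9 T cell markers. All 9 were above 0 in both naive libraries, in WT day 3 and in WT day 6, whereas Cd3d was at 0 in NLRP3KO day 3 and Cd3g, Cd5 and Lck were at 0 in NLRP3KO day 6. Summed FPKM of 2 CD8 T cell, 7 B cell, 8 myeloid, 6 NK cell and 5 erythroid entries were at or below 2.87 in every Th2 library. In libraries so shallow that T cell markers are listed at 0, such low sums do not show that other cells were absent.

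Among the receptor chains, Il2rg was by far the most abundant of the 10 genes in naive cells and no longer the most abundant in any Th2 library, while Il4ra and Il2rb stood near or above it there. Il2rg had 323 FPKM in naive NLRP3KO and 266 in naive WT, 10.0 in NLRP3KO and 7.90 in WT at day 3, and 15.8 in NLRP3KO and 7.25 in WT at day 6. Both naive values lie above their own deposited upper bounds of 319.7 in NLRP3KO and 257 in WT, so they are less certain than their 1622 fragments in NLRP3KO and 1957 in WT imply. Il2rb had 35.1 and 17.0 FPKM in naive NLRP3KO and WT, 26.4 and 13.0 at day 3, and 18.1 and 11.8 at day 6, with the NLRP3KO library the higher at each stage. Il4ra, whose product binds IL-4, had 38.6 FPKM in naive NLRP3KO and 24.4 in naive WT, 11.9 in NLRP3KO and 12.7 in WT at day 3, and 20.3 in NLRP3KO and 12.2 in WT at day 6. Its deposited bounds overlapped between genotypes at both Th2 times.

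The ratio of one gene to another within a library does not depend on scaling between libraries. Il2rb over Il2rg was 0.108 in naive NLRP3KO and 0.0641 in naive WT, 2.63 in NLRP3KO and 1.64 in WT at day 3, and 1.15 in NLRP3KO and 1.63 in WT at day 6. Il2rg made up 50.8% of the 10 genes' summed FPKM in naive NLRP3KO and 59.0% in naive WT, against 8.20% to 14.0% in the Th2 libraries. The first-ranked gene was Il2rg in both naive libraries, Il2rb in both day 3 libraries, Il4ra in NLRP3KO day 6 and Cish in WT day 6. In NLRP3KO day 6 this order rests on few fragments, 13 for Il4ra, 6 for Il2rb and 3 for Il2rg, and their deposited bounds overlap.

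**Figure D1:**
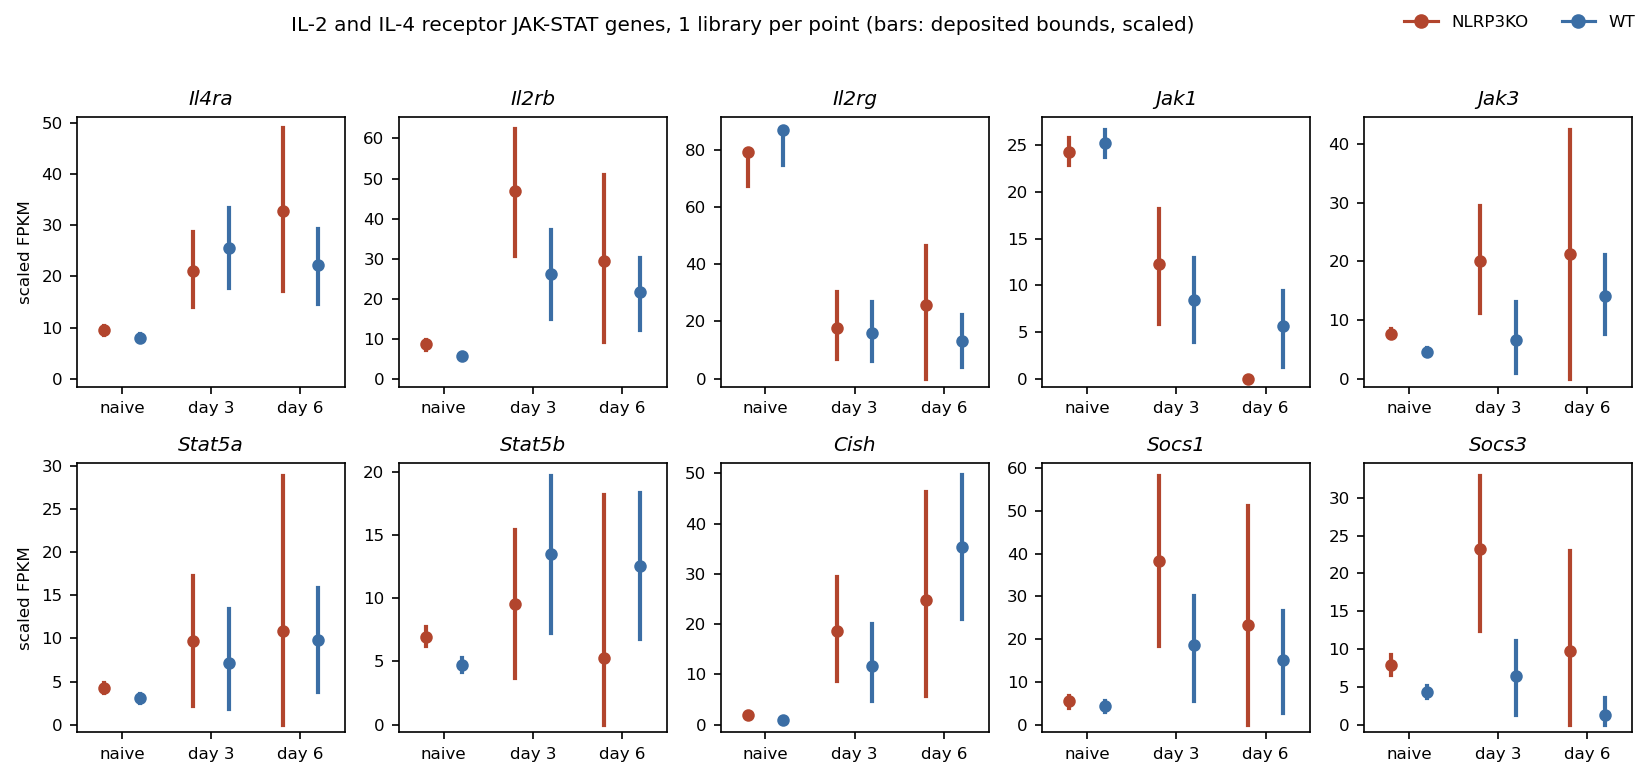
FPKM of each of the 10 genes after scaling between libraries (linear axis, different for each gene) in naive cells and at days 3 and 6 of Th2 culture, NLRP3KO on the left of each pair and WT on the right. Each point is 1 library and each bar runs between the deposited bounds, scaled alike. Il2rg and Jak1 are highest in the naive libraries, Cish is lowest there, the bars of NLRP3KO day 6 are the widest for most genes, and both naive Il2rg points lie above their bars.

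Of the kinases, Jak1 led in naive cells and in WT day 3, and Jak3 led in the other Th2 libraries. Jak1 had 99.1 FPKM in naive NLRP3KO and 76.8 in naive WT, 6.94 in NLRP3KO and 4.18 in WT at day 3, and 0 in NLRP3KO and 3.10 in WT at day 6. The 0 in NLRP3KO day 6 is not a measured absence, since 3 fragments would have given 4.49 FPKM in that library, more than the WT value. Jak3, the kinase bound to the common gamma chain, had 31.3 FPKM in naive NLRP3KO and 14.0 in naive WT, 11.3 in NLRP3KO and 3.28 in WT at day 3, and 13.1 in NLRP3KO and 7.72 in WT at day 6. Jak3 over Jak1 was 0.316 in naive NLRP3KO and 0.182 in naive WT, against 1.63 in NLRP3KO and 0.785 in WT at day 3 and 2.49 in WT day 6.

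Stat5a and Stat5b encode the transcription factors that IL-2 activates, and both were detected in all 6 libraries. Stat5a had 17.4 FPKM in naive NLRP3KO and 9.29 in naive WT, 5.47 in NLRP3KO and 3.54 in WT at day 3, and 6.69 in NLRP3KO and 5.39 in WT at day 6. Stat5b had 28.4 FPKM in naive NLRP3KO and 14.3 in naive WT, 5.35 in NLRP3KO and 6.68 in WT at day 3, and 3.23 in NLRP3KO and 6.88 in WT at day 6. The genotypes' deposited bounds overlapped for both genes in all Th2 libraries. Stat5a (mm9, chromosome 11, 100720665 to 100746483) and Stat5b (100642045 to 100711899) are closely related neighbours whose fragments the authors' estimation could have split unevenly, and fragment numbers could not be recovered for them or for Jak3.

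The inhibitors took a larger part of the 10 genes' FPKM in Th2 cells than in naive cells. Together Cish, Socs1 and Socs3 made up 9.89% of it in naive NLRP3KO and 6.40% in naive WT, 36.8% in NLRP3KO and 26.2% in WT at day 3, and 31.6% in NLRP3KO and 34.2% in WT at day 6. Which inhibitor led differed by library. Cish had 8.11 FPKM in naive NLRP3KO and 2.75 in naive WT, the lowest of the 10 in both, 10.4 in NLRP3KO and 5.75 in WT at day 3, and 15.3 in NLRP3KO and 19.4 in WT at day 6. Socs1, an inhibitor that binds JAK kinases, had 22.6 FPKM in naive NLRP3KO and 13.0 in naive WT, 21.6 in NLRP3KO and 9.26 in WT at day 3, and 14.4 in NLRP3KO and 8.24 in WT at day 6. Socs3 had 32.2 FPKM in naive NLRP3KO and 13.0 in naive WT, 13.1 in NLRP3KO and 3.21 in WT at day 3, and 5.98 in NLRP3KO and 0.688 in WT at day 6. Socs3 had the lowest value of the 3 inhibitors in WT day 3 and in both day 6 libraries, and Cish the lowest in the others. Within a library, Cish over Socs3 was 0.252 in naive NLRP3KO and 0.211 in naive WT, 0.800 in NLRP3KO and 1.79 in WT at day 3, and 2.56 in NLRP3KO and 28.1 in WT at day 6. The last ratio is 24 Cish fragments against 1 Socs3 fragment.

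**Figure D2:**
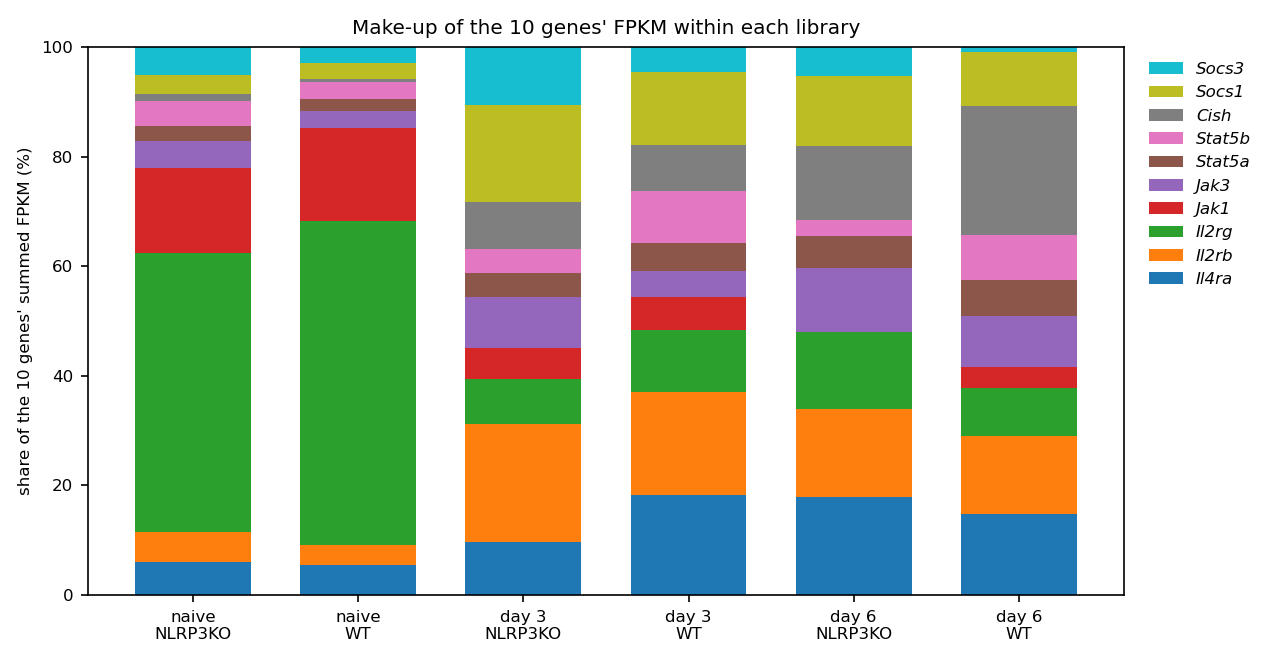
Share of each gene in the summed FPKM of the 10 genes (stacked to 100%) in each of the 6 libraries, naive, day 3 and day 6 with NLRP3KO before WT. Il2rg fills 50.8% and 59.0% of the naive NLRP3KO and WT bars and at most 14.0% of a Th2 bar, while Cish fills 1.28% and 0.612% of the naive NLRP3KO and WT bars and 23.4% in WT day 6.

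After scaling, the comparison of day 3 with naive cells gave the same outline in both genotypes. Cish, Socs1, Il2rb, Il4ra and Stat5a were at least 2-fold higher at day 3, and Il2rg was lower. Stat5a lay near the threshold, with scaled bounds that overlapped in both genotypes. It lost its call with the median ratio over the 2 libraries (log2 difference 0.90 in NLRP3KO, 0.85 in WT). The same held with upper quartile scaling (0.54 in NLRP3KO, 0.56 in WT) and a pseudocount of 5 (0.67 in NLRP3KO, 0.59 in WT). In NLRP3KO, Il4ra also lost its call with these settings (0.92, 0.55 and 0.86), though its scaled bounds lay apart. In NLRP3KO, 7 of 10 genes were at least 2-fold higher and 1 lower, against 10.8% higher and 32.1% lower of 10048 genes. In WT, 6 of 10 were higher and 2 lower, against 9.99% higher and 31.3% lower of 9562 genes. Scaled bounds lay apart for 6 higher and 2 lower genes in NLRP3KO, against 4.65% and 9.69% of 5873 genes above 0 in both libraries, and for 4 higher and 2 lower genes in WT, against 4.82% and 10.2% of 6085. The 2 lower genes were Il2rg and Jak1 in both genotypes, and the higher ones included Cish, Il2rb and Il4ra in both. The median log2 difference of the 10 was 1.19 in NLRP3KO and 1.18 in WT, against -0.53 and -0.52 over all genes. Cish stood 9.34-fold higher in NLRP3KO (95% counting interval 4.49 to 18.4) and 12.8-fold higher in WT (5.41 to 31.2). Il2rb was 5.46-fold higher in NLRP3KO (3.74 to 7.86) and 4.69-fold higher in WT (2.82 to 7.29). Il2rg at day 3 was 0.225 times its naive level in NLRP3KO (0.101 to 0.463) and 0.183 times in WT (0.0819 to 0.375). These intervals come from estimated fragments and cover counting error only.

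Socs1 and Il4ra were also higher at day 3 in both genotypes. Socs1 was 6.93-fold higher at day 3 in NLRP3KO (3.30 to 12.2) and 4.37-fold higher in WT (1.75 to 9.80). Il4ra was 2.24-fold higher in NLRP3KO (1.50 to 3.27) and 3.20-fold higher in WT (2.25 to 4.42). Jak1 was lower in both genotypes, at 0.509 times the naive level in NLRP3KO (0.295 to 0.817), short of the 2-fold count, and 0.334 times in WT (0.177 to 0.572). Socs3 and Jak3 passed 2-fold in NLRP3KO with log2 differences of 1.45 and 1.29, against 0.50 and 0.45 in WT. Stat5b passed it in WT with 1.35, against 0.40 in NLRP3KO. Whether these genotype differences in the step from naive to day 3 go beyond library noise was not tested.

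These directions depend on the scaling, because the deposited FPKM of all genes were lower in Th2 than in naive libraries, with a median log2 difference of -2.33 in NLRP3KO and -2.05 in WT. The ribosomal transcript Rn45s had 63243 FPKM in NLRP3KO day 3 and 57645 in WT day 3, against 7819 in naive NLRP3KO and 10783 in naive WT. As deposited, 7 of the 10 genes were at least 2-fold lower at day 3 in NLRP3KO and 5 in WT, and none was 2-fold higher. Cish was the 1 gene of the 10 that was higher at day 3 in both genotypes on both scales, with deposited ratios of 1.29 in NLRP3KO and 2.09 in WT. Its deposited bounds overlapped between day 3 and naive in both genotypes, on 11 day 3 fragments in NLRP3KO and 8 in WT. On the deposited scale its rise is thus not set apart from counting error. Il2rg and Jak1 were lower in both genotypes on both scales. Of the 9 T cell markers, 7 were at least 2-fold lower in NLRP3KO day 3 than in naive NLRP3KO and 8 in WT day 3 than in naive WT after scaling, so Il2rg and Jak1 moved with them.

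**Figure D3:**
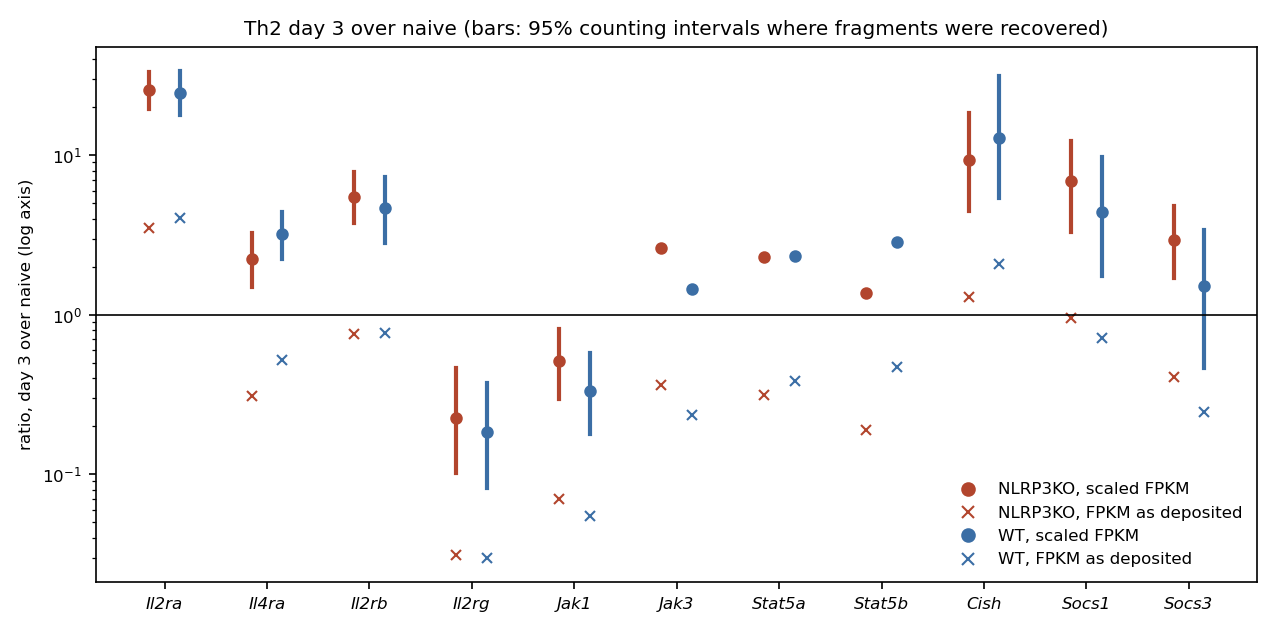
Ratio of day 3 over naive (log axis) for Il2ra and the 10 genes, NLRP3KO on the left of each pair and WT on the right. Circles are scaled FPKM with 95% counting intervals where fragment numbers were recovered, and crosses are deposited FPKM. Circles of Cish and Il2rb lie above 1 with their bars, crosses lie below 1 for 9 of the 10 genes in both genotypes, and Il2rg and Jak1 lie below 1 on both scales.

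From day 3 to day 6 few of the genes differed by 2-fold, and WT Cish was the one with bounds that did not overlap. This comparison shares its day 3 libraries with the previous one. In NLRP3KO, 0 of 10 genes were at least 2-fold higher and 2 lower, against 21% higher and 51.8% lower of 5207 genes, where many zeros stand in the shallow day 6 library. The 2 were Socs3, with 2 fragments at day 6 and 17 at day 3, and Jak1, listed at 0 at day 6 and with 17 fragments at day 3, where 3 fragments at day 6 would have given 4.49 FPKM against 6.94 at day 3. The counting interval of Jak1 runs from 0 to 0.81 times its day 3 level. Of the 9 members above 0 in both NLRP3KO libraries, 0 had scaled bounds apart, against 0.138% of 2181 such genes higher and 0.734% lower. In WT, 1 was higher and 1 lower, against 24.1% and 20.2% of 5592 genes. Cish was 3.05-fold higher at day 6 than at day 3 in WT (1.27 to 7.52), on 24 against 8 fragments, and 1.34-fold higher in NLRP3KO (0.282 to 4.10), on 4 against 11. Socs3 in WT stood at 0.194 times its day 3 level (0.00412 to 1.74), on 1 against 5 fragments. Scaled bounds lay apart and higher at day 6 in 0.251% of the 3985 genes above 0 in both WT libraries, and lower in 0.502%. Il4ra, Il2rb, Il2rg and Stat5b in WT differed between the times by at most 0.27 on the log2 scale.

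In naive cells, where depth was greatest, 8 of the 10 genes were higher in NLRP3KO than in WT after scaling, though none was 2-fold apart once the pseudocount of 1 was added. The background of genes at least 2-fold apart was small, 0.21% higher and 2.32% lower of 9985. The median log2 difference was 0.43 for the 10 genes and 0.01 for all genes. Scaled bounds lay apart and higher in NLRP3KO for 6 of the 10 genes (Il2rb, Jak3, Stat5a, Stat5b, Cish and Socs3) and lower for 0, against 6.31% higher and 8.78% lower of 9852 genes. As plain ratios of scaled FPKM, Cish, whose naive values are low, was 2.20-fold higher in NLRP3KO (1.39 to 3.68), Socs3 1.84-fold (1.52 to 2.26), Jak3 1.67-fold, Il2rb 1.54-fold (1.28 to 1.84), Stat5b 1.49-fold and Stat5a 1.40-fold. The most abundant naive genes differed little, Il2rg at 0.909 times the WT level (0.851 to 0.971) and Jak1 at 0.962 times (0.899 to 1.03).

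Markers of other cells differed between the same naive libraries. The regulatory T cell gene Foxp3 had 25.0 FPKM in naive NLRP3KO and 9.30 in naive WT, Ctla4 had 19.3 in NLRP3KO and 10.8 in WT, and the 6 regulatory T cell markers summed to 107 in NLRP3KO and 65.9 in WT, with all 6 above 0 in both. All 7 B cell markers were above 0 in both libraries and summed to 41.0 FPKM in NLRP3KO and 84.8 in WT. The 6 NK cell markers, 5 above 0 in each library, summed to 3.95 in NLRP3KO and 12.8 in WT. These are deposited FPKM. After the scaling used for the 10 genes, regulatory T cell markers summed to 26.3 in NLRP3KO and 21.6 in WT, B cell markers to 10.0 in NLRP3KO and 27.8 in WT, and NK cell markers to 0.968 in NLRP3KO and 4.21 in WT. Of the regulatory T cell markers, Ikzf2 and Tnfrsf18 were lower in NLRP3KO after scaling and the other 4 higher. The 8 myeloid entries, 6 above 0 in NLRP3KO and 8 in WT, summed to 20.9 in NLRP3KO and 15.8 in WT as deposited and to 5.11 in NLRP3KO and 5.17 in WT after scaling. The 5 erythroid entries, all above 0, summed to 457 in NLRP3KO and 181 in WT as deposited, and the 2 CD8 T cell markers to 15.7 in NLRP3KO and 16.1 in WT. The part of these cells in the differences of the 10 genes was not tested.

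At day 3, 3 of the 10 genes were at least 2-fold above WT in NLRP3KO and 0 were below by as much, against 25.4% higher and 27.2% lower of 5749 genes, so the count is near the background. The 3 were Socs3, Jak3 and Socs1, with log2 differences of 1.70, 1.47 and 1.00. Socs1 lay at the threshold and lost its call with the median ratio over the 2 libraries (0.82), upper quartile scaling (0.98) and a pseudocount of 5 (0.87). Socs3 was 3.59-fold higher in NLRP3KO (1.35 to 13.2), on 17 fragments against 5 in WT. It was the 1 gene of the 10 whose scaled bounds lay apart, which held for 1.33% of the 3773 genes above 0 in both libraries in that direction and 0.954% in the other. Il2rb was 1.79-fold higher in NLRP3KO (1.02 to 3.29), and the intervals of Il4ra, Il2rg, Jak1, Cish and Socs1 include 1. The 6 regulatory T cell markers summed to 86.6 FPKM in NLRP3KO and 30.6 in WT at day 3, of which Il2ra gave 43.2 in NLRP3KO and 24.0 in WT and Tnfrsf18 29.3 in NLRP3KO and 3.85 in WT. Ctla4 gave 10.6 in NLRP3KO and 1.85 in WT, and Lrrc32 3.44 in NLRP3KO and 0.902 in WT. Foxp3, the defining marker, and Ikzf2 were at 0 in both, which at the depth of these libraries is not a measured absence. At day 6 the 6 markers went the other way, summing to 34.3 FPKM in NLRP3KO and 40.3 in WT, with 3 above 0 in NLRP3KO and 4 in WT. The part of regulatory T cells in the day 3 differences was not tested.

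At day 6, 1 of the 10 genes was higher in NLRP3KO by 2-fold or more and 2 were lower, against 20.9% higher and 53.8% lower of 5336 genes. Socs3 was the higher one, on 2 fragments in NLRP3KO against 1 in WT, and its 7.72-fold ratio has an interval of 0.401 to 454. Stat5b was lower with a log2 difference of -1.12, and Jak1 was listed at 0 in NLRP3KO. Jak1 had a ratio interval of 0 to 1.95. Of the 9 members above 0 in both libraries, 0 had scaled bounds apart, against 0.459% higher and 1.65% lower of 2178 such genes, and the intervals of Il4ra, Il2rb, Il2rg, Cish, Socs1 and Socs3 all include 1. Of the 9 T cell markers, 5 were at least 2-fold lower in NLRP3KO than in WT at day 6, and 0 were higher by as much. Cd4 was among the lower, with 2.61 FPKM in NLRP3KO day 6 and 14.4 in WT day 6. Another 3 of the lower were listed at 0 in NLRP3KO day 6, which at this depth is not a measured absence. As deposited, Cd2, Cd3d, Cd3e and Thy1 went the other way, with higher FPKM in NLRP3KO day 6 than in WT day 6.

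Across the 3 stages, whose genotype comparisons share no library, Socs3, Socs1, Jak3, Il2rb and Stat5a were higher in NLRP3KO each time. That is 5 of the 9 genes above 0 in all 6 libraries, with 0 lower each time, against 19.4% higher and 13.9% lower of 1538 such genes. This filter leaves out Jak1, listed at 0 in NLRP3KO day 6, and it selects for higher values in that shallow library. At day 6 the median log2 difference was 0.33 over genes above 0 in both libraries, against -1.52 over all genes kept. The count of 5 also depends on the scaling at day 6. It was 4 with the median ratio over the 2 libraries, where Stat5a was lower, and 1, Socs3, with upper quartile scaling, where Socs1 (-0.24), Jak3 (-0.28), Il2rb (-0.42) and Stat5a (-0.66) were lower in NLRP3KO at day 6. The log2 differences of Socs3 were 0.75 in naive cells, 1.70 at day 3 and 2.25 at day 6. The day 6 value rests on 2 fragments in NLRP3KO against 1 in WT, with a ratio interval of 0.401 to 454. Whether the difference changes with stage was not tested. Log2 differences of Jak3 were 0.63, 1.47 and 0.56, those of Il2rb 0.54, 0.82 and 0.43, and those of Socs1 0.31, 1.00 and 0.60. Those of Stat5a were smaller, 0.38, 0.40 and 0.13, and with Stat5a and Stat5b summed as 1 gene the differences were 0.48, -0.09 and -0.45. A limma fit of genotype with stage as a block, added after seeing the data, treats the 3 stages as repeats of 1 genotype difference and leaves 2 residual degrees of freedom. Of 3800 genes fitted, 0 had an adjusted p under 0.05 in either direction, and 33 were higher and 190 lower at an unadjusted p under 0.05 (limma). Genes listed at 0 in a library, Jak1 among them, were part of the fit. In the day 6 genotype comparison 59.2% of the 5336 genes kept were listed at 0 in 1 library. The part of these zeros in the larger number of lower genes was not tested. Socs3 had a mean log2 difference of 1.56 ± 0.63 (SE, limma adjusted p = 0.714, unadjusted p = 0.0361), higher at 3 of 3 stages. The adjusted limma p of the other 9 genes lay between 0.714 and 0.942. Stat5b and Cish were higher in NLRP3KO in naive cells, at 0.49 and 0.65, and lower at day 6, at -1.12 and -0.49.

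**Figure D4:**
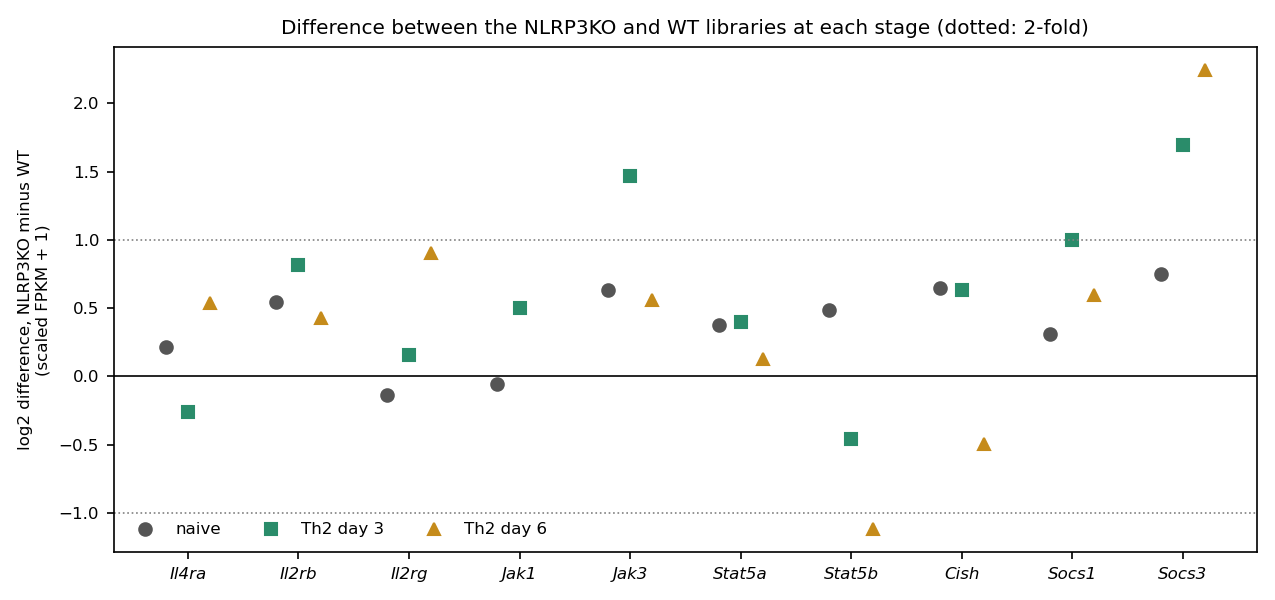
Log2 difference of scaled FPKM plus 1, NLRP3KO minus WT, for the 10 genes in naive cells (circles), at day 3 (squares) and at day 6 (triangles), 1 library per genotype and stage. Dotted lines mark 2-fold. Socs3 is above 0 at each stage with 0.75, 1.70 and 2.25, the naive points lie between -0.14 and 0.75, and Jak1 at day 6 is not drawn because it was listed at 0 in NLRP3KO. The day 6 point of Socs3 rests on 2 fragments in NLRP3KO against 1 in WT.

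Around these genes, the alpha chain Il2ra, itself induced by STAT5, had 12.3 FPKM in naive NLRP3KO and 5.97 in naive WT, 43.2 in NLRP3KO and 24.0 in WT at day 3, and 21.6 in NLRP3KO and 23.4 in WT at day 6. It was higher at day 3 than in naive cells on both scales, 25.5-fold after scaling in NLRP3KO (19.5 to 33.0) and 24.7-fold in WT (17.9 to 33.6). At day 3 it was 1.59-fold higher in NLRP3KO than in WT (1.15 to 2.23). Stat6, the main transcription factor of IL-4 signalling, had 44.4 FPKM in naive NLRP3KO and 29.0 in naive WT, 1.72 in NLRP3KO and 2.26 in WT at day 3, and 2.11 in NLRP3KO and 3.88 in WT at day 6. After scaling, Stat6 at day 3 was 0.282 times its naive level in NLRP3KO (0.0557 to 0.797), on 3 day 3 fragments. In WT it was 0.479 times that level (0.149 to 1.08), on 5 fragments, short of the 2-fold count. The ligand genes were low: Il4 was listed at 3.77 FPKM in WT day 3, with bounds of 0 and 18.9, and at 0 elsewhere. Il2 was at 0.422 in naive NLRP3KO, 2.08 in WT day 3 and 0 elsewhere.

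Of 13 genes known as STAT5 targets, 8 of the 12 kept were at least 2-fold higher at day 3 than in naive cells and 1 was lower in each genotype, against 10.8% and 32.1% of all genes in NLRP3KO and 9.99% and 31.3% in WT, with a median log2 difference of 1.44 in NLRP3KO and 1.98 in WT. As for the 10 genes, this depends on the scaling. As deposited, Il2ra and Nfil3 were higher at day 3 in both genotypes and Bcl2l1 and Pim2 in WT, and the other targets were lower. An example was Nfil3, a transcription factor, at 6.83 FPKM at day 3 against 1.06 in naive cells for NLRP3KO and 7.17 against 0.723 for WT. Bcl2l1, which encodes the survival protein BCL-XL, had 4.73 FPKM in NLRP3KO day 3 and 4.84 in naive NLRP3KO, and 8.93 in WT day 3 and 3.19 in naive WT. Myc, a growth regulator, had 6.53 FPKM in NLRP3KO day 3 and 25.3 in naive NLRP3KO, and 12.5 in WT day 3 and 13.6 in naive WT. Of 8 STAT6 and Th2 genes, 5 of 7 kept were higher after scaling and 0 lower in NLRP3KO, and 6 of 7 higher and 1 lower in WT. In each genotype 2 of the 7 were listed at 0 in 1 library. Gata3 was among the higher genes after scaling. Its deposited FPKM were 14.4 in NLRP3KO day 3 against 16.2 in naive NLRP3KO, and 15.6 in WT day 3 against 13.5 in naive WT. As deposited it was short of 2-fold higher in both genotypes, so its call in each depends on the scaling. Between genotypes at day 3, 0 of the 11 STAT5 targets kept passed 2-fold upwards in NLRP3KO and 3 downwards, with a median of -0.18, near the 25.4% higher and 27.2% lower of all genes. Of the 10 other cytokine receptor genes kept in that comparison, 5 passed 2-fold upwards in NLRP3KO and 0 downwards, with a median of 0.90. Of the 5, 3 were low in NLRP3KO and listed at 0 in WT. They were Ifnar2 at 2.05 FPKM, Ifngr1 at 1.08 and Il10ra at 1.26, so these calls rest on low values in shallow libraries. Il21r, whose product also pairs with the common gamma chain, was another of the 5, at 17.1 FPKM in NLRP3KO and 5.38 in WT. It had 60.4 in naive NLRP3KO and 29.96 in naive WT. For these receptor genes the same background of 25.4% and 27.2% applies.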

How the data were processed

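RNA of 300000 cells per library was amplified for 12 PCR cycles and sequenced on a MiSeq, per the labels' protocols. The authors deposited 1 table of gene FPKM per library with a lower and upper bound and a status, per the file headers. TopHat, Cufflinks and mm9 are named in the submitters' processing notes, with versions and annotation not given in the sources used here. The 23700 entries per table included 285 with too little data, which were left out.

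No count test was run on these FPKM. Scaling multipliers were 0.245 (naive NLRP3KO), 0.328 (naive WT), 1.78 (NLRP3KO day 3), 2.02 (WT day 3), 1.62 (NLRP3KO day 6) and 1.83 (WT day 6). A gene was kept in a comparison where its FPKM reached 1 in either library, and the pseudocount of 1 understates differences of low genes. FPKM in the text are as deposited, and ratios and log2 differences are after scaling unless called deposited. Bounds are mostly whole multiples of the FPKM of 1 fragment (relative tolerance 2e-05), which gave fragment numbers for 6153 genes, 7 of the 10 members among them. They are inferences, and in naive libraries the deposited bounds are wider than fragment counting gives. Intervals are at 95%, from exact binomial limits on the 2 libraries' fragments. Intervals and floors of 3 fragments cover counting error only, since PCR copies carry no molecular identifiers.

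Members and gene lists were chosen with earlier results of these data known. All 10 members, Il2ra, Stat6, Il4, Il2 and Nlrp3 were named in every library. Listed genes were named if their FPKM reached 5 in 1 library, with values above 0 in both and bounds that did not overlap, at most 4 per list and comparison. Some listed genes and markers named beside a result (Tnfrsf18, Ctla4, Ikzf2, Lrrc32, Ifnar2, Ifngr1, Il10ra, Myc, Rn45s) were chosen after their values were seen. Calculations used Python 3.11.15, numpy 2.4.6, pandas 2.3.3 and scipy 1.17.1, with limma 3.58.1 in R 4.3.3 for the fit with stage as a block (mean-variance trend, Benjamini-Hochberg adjustment over genes kept at all 3 stages), and were tested on simulated data.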

Additional observations from a re-analysis of the deposited data

How the results depend on the processing

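Scaling decided the comparison with naive cells. On FPKM as deposited, day 3 against naive gave 0 members higher and 7 lower by 2-fold in NLRP3KO (median log2 -1.45), and 0 higher and 5 lower in WT (median -1.09). Members called higher after scaling then had log2 differences of -1.62 (Il4ra), -0.40 (Il2rb), -1.39 (Jak3), -1.50 (Stat5a), -0.064 (Socs1) and -1.24 (Socs3) in NLRP3KO, and -0.89 (Il4ra), -0.37 (Il2rb), -1.18 (Stat5a), -0.99 (Stat5b) and -0.45 (Socs1) in WT. For day 3 against naive in NLRP3KO, 2 members were lower with the median ratio over the 2 libraries, 3 were higher and 2 lower with upper quartile scaling, and 4 were higher with a pseudocount of 5. Between naive genotypes, 4 members were at least 2-fold higher in NLRP3KO as deposited (median 0.89) and 1 with a pseudocount of 0.1.

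Counts at day 6 rest on few fragments. NLRP3KO against WT gave 2 higher and 1 lower as deposited, 6 higher and 1 lower when scaled by estimated fragments on genes, and 1 lower with a pseudocount of 5, with a minimum FPKM of 5 or among genes above 0 in both libraries. Day 6 against day 3 in NLRP3KO gave 5 lower with upper quartile scaling, 2 higher and 1 lower when scaled by fragments, and 1 lower with a pseudocount of 5 or among genes above 0 in both. In WT it gave 2 higher as deposited, with a pseudocount of 0.1 and with scaling genes taken from the 5 other libraries (chosen after seeing the data), and 0 lower with a pseudocount of 5 or a minimum FPKM of 5. Requiring values above 0 in both libraries and scaled bounds apart (also chosen after seeing the data) left 1 higher in NLRP3KO against WT at day 3, 0 higher and 0 lower at day 6, and 0 lower for day 6 against day 3 in either genotype. Other alternatives kept these counts within 1.5 times, and the cause of the changes was not tested. By replicate number, no paired analysis was possible because each group is 1 library, and no replicate could be left out. A pairing by stage was possible, and its limma fit gave 0 genes with an adjusted p under 0.05.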

Other observations

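Of 16 further negative regulators (SOCS and PIAS family members, phosphatases and CBL adaptors), 2 were at least 2-fold higher and 6 lower at day 3 than in naive cells in NLRP3KO, and 2 higher and 3 lower in WT, against 10.8% higher and 32.1% lower of all genes in NLRP3KO and 9.99% and 31.3% in WT. Socs2, a relative of Cish, was higher in both genotypes, with 10.1 FPKM in NLRP3KO day 3 against 2.54 in naive NLRP3KO, and 7.18 in WT day 3 against 2.31 in naive WT. The phosphatase gene Ptpn6 had 1.02 FPKM in NLRP3KO day 3 against 97.0 in naive NLRP3KO, a log2 difference of -3.14 after scaling. In WT it had 4.03 against 58.5. Ptpn2, a phosphatase that acts on JAK1 and JAK3, had 0.255 FPKM in NLRP3KO day 3 against 31.3 in naive NLRP3KO (-2.58 after scaling). In WT it had 1.13 against 20.6. Pias1 had 0.446 FPKM in WT day 3 against 16.9 in naive WT (-1.79 after scaling). In NLRP3KO it had 1.13 against 18.9. Lower bounds at day 3 were 0 for Ptpn6 and Ptpn2 in NLRP3KO and for Pias1 in WT.

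Among 7 other JAK and STAT genes, Jak2 was higher at day 3 after scaling in both genotypes, with log2 differences of 2.08 in NLRP3KO and 2.24 in WT, while its deposited FPKM were 9.91 in NLRP3KO day 3 against 13.8 in naive NLRP3KO, and 9.83 in WT day 3 against 10.4 in naive WT. Stat3, the main transcription factor downstream of IL-6, had 10.2 FPKM in NLRP3KO day 3 and 2.29 in WT day 3, with bounds that did not overlap. The receptor gene Il7r had 1.37 FPKM in NLRP3KO day 3 against 75.3 in naive NLRP3KO, and 1.62 in WT day 3 against 60.6 in naive WT. Its log2 differences after scaling were -2.50 in NLRP3KO and -2.29 in WT, with lower bounds of 0 at day 3 in both.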
